A study of Mus musculus with 4 samples.

Results

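The enzymes of the methionine and betaine cycles were followed through 9 genes, Mat1a, Mat2a, Mat2b, Ahcy, Bhmt, Bhmt2, Mtr, Cbs and Chdh, which were picked by gene name from the 13903 genes listed in the table. All 9 were listed and all 9 passed the filter of at least 10 CPM on average (CPM, reads per 1000000 reads on the listed genes), as did 8963 genes in all. RNA was taken from the livers of OGT-floxed C57BL/6J mice, all fed the CDE (choline-deficient, ethionine-supplemented) diet. The OGT-KO label stands for AAV8-TBG-CRE and the control label for AAV8-TBG-eGFP, and for each label 1 group was taken at the end of the diet with no recovery and 1 after 7 days of recovery. A group was 1 library of equally pooled RNA from 3 mice; values thus come without replicate error, and differences between groups without a test. The TBG promoter drives Cre in hepatocytes, so the other liver cells in the same RNA were not targeted. All groups shared the floxed allele, an AAV8 vector and the diet. Livers of mice on another diet were not analysed here, and the age of the mice was not given in the sources used here.

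Methionine is activated to S-adenosylmethionine, the donor for most cellular methylation, by methionine adenosyltransferases. Mat1a encodes the enzyme of adult hepatocytes, whereas Mat2a is the form of other tissues and of growing or fetal liver, and Mat2b encodes its regulatory subunit. Methyl transfer leaves S-adenosylhomocysteine, which Ahcy cleaves to homocysteine and adenosine. Homocysteine is methylated back to methionine with betaine by Bhmt, with S-methylmethionine by Bhmt2, or with methyl folate by the cobalamin enzyme Mtr, or it leaves the cycle through Cbs into transsulfuration. Chdh starts the oxidation of choline to betaine. The diet bears on this cycle because it lacks choline and carries ethionine, an analog of methionine that the same adenosyltransferases use.

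Ogt, the targeted gene, was examined first as a check of the labels. It had 64.7 CPM in control and 55.3 CPM in the OGT-KO-labelled library with no recovery, and 55.7 and 77.7 CPM after 7 days. The whole-gene value was therefore lower in the OGT-KO-labelled library with no recovery and higher in it after 7 days, which goes against the label at the later time. Its log2 difference was -0.22 and 0.47 at equal totals, and -0.93 and -0.20 with median-ratio scaling, so the direction at the later time depended on the scaling between libraries. The table gives reads per whole gene and cannot show whether a floxed exon was lost.

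The 4 libraries held 19972699 to 22866431 reads on the listed genes, and 3 reads, the count taken as the floor, correspond to 0.131 to 0.150 CPM. The scaling mattered for the 2 comparisons between the labels. At equal totals, which is how the authors deposited the values, the median gene differed by 0.51 (log2, labelled OGT-KO minus control) with no recovery and by 0.48 after 7 days. It differed by -0.19 and -0.18 with median-ratio size factors in place of totals, and by 0.04 and 0.01 with upper-quartile scaling. Markers of other cells also moved with the label. Summed over 7 of 7 stellate cell and myofibroblast markers, the level was 126 and 92.2 CPM in the control libraries and 2928 and 3767 CPM in those labelled OGT-KO (no recovery, then 7 days), and the 5 bile duct markers summed to 53.7 and 69.6 against 1148 and 1457 CPM. The 4 macrophage markers that passed the filter were at least 2-fold higher under the OGT-KO label at both times, while the 5 endothelial markers summed to 171 and 118 CPM against 296 and 218 CPM. The median log2 difference of the endothelial markers was 0.63 and 0.64 in CPM, near that of all genes, and -0.08 and -0.02 with median-ratio scaling, so their direction depended on the scaling. The fetal markers summed to 3.06 and 4.11 CPM in the control libraries and to 680 and 2329 CPM in those labelled OGT-KO, while the lymphocyte markers Cd3e and Cd79a were under 3 CPM in all 4 libraries. Ptprc, which most leukocytes express and which was the only lymphocyte-list gene to pass the filter, had 6.16 and 33.8 CPM with no recovery and 2.55 and 31.7 CPM after 7 days, log2 differences of 2.28 and 3.20. Hepatocyte markers were abundant in every library, with a sum over 7 genes of 75021 and 86337 CPM in the control libraries and 53044 and 64031 CPM in those labelled OGT-KO, and their median log2 difference was -0.87 and -0.91. The 4 markers of pericentral hepatocytes summed to 7878 and 9080 CPM against 1550 and 1908 CPM (median log2 difference -2.27 and -1.80), and the 4 of periportal hepatocytes to 5808 and 5543 CPM against 2936 and 3578 CPM (-1.52 and -1.39). The part of these shifts in the results for the 9 enzymes was not tested.

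With no recovery, 4 of the 9 enzymes (Bhmt, Ahcy, Mat1a and Cbs) were at least 2-fold lower under the OGT-KO label than in control, beside 5.69% of all genes compared. In the same comparison 0 of 9 were at least 2-fold higher, beside 24.4%. After 7 days, 3 of 9 (Mat1a, Ahcy and Cbs) passed 2-fold on the lower side, beside 4.27%, and 1 of 9 (Chdh) on the higher side, beside 22.9%. The median log2 difference of the 9 genes was -0.65 and -0.31, against 0.51 and 0.48 for all genes. The 9 genes took 0.608% and 0.620% of the reads in the control libraries, and 0.242% and 0.327% in those labelled OGT-KO. The adult hepatocyte synthetase, the hydrolase and the transsulfuration entry were thus low under the OGT-KO label at both times, and Bhmt was lowest with no recovery. Bhmt2 was lower by less, with log2 differences of -0.65 and -0.31, and Chdh was at 0.08 and 1.04. Mat2a, Mat2b and Mtr were above control in CPM by 0.50 to 0.81 on the log2 scale, where the median gene was above it by 0.51 and 0.48. In a bulk sample, fewer hepatocytes and less of a transcript per hepatocyte cannot be told apart.

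**Figure D1:**
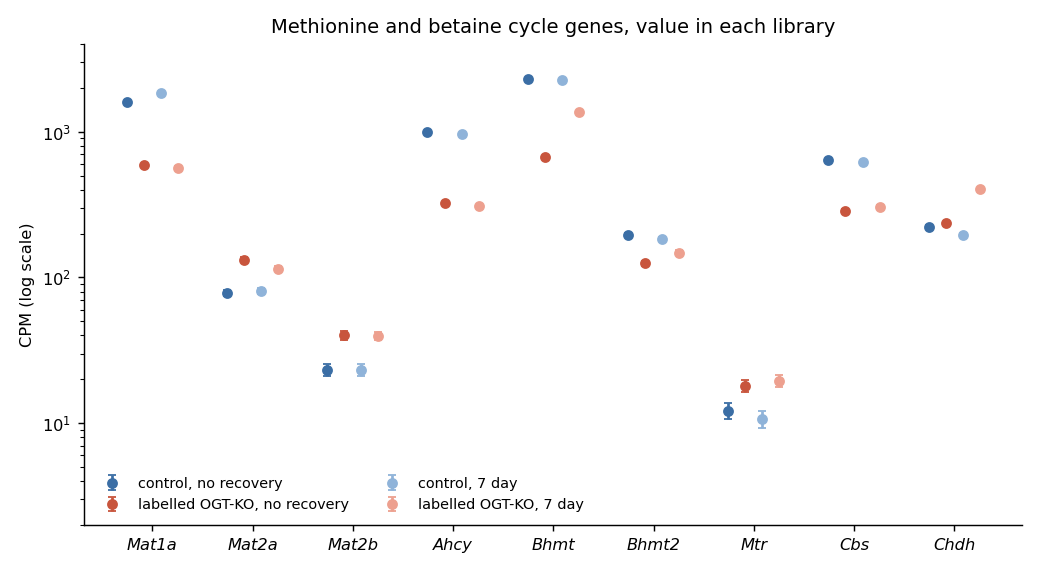
CPM of the 9 genes in the 4 libraries on a log axis, with exact 95% Clopper-Pearson intervals that cover counting error only and are mostly narrower than the points. Mat1a, Ahcy, Bhmt and Cbs lie lower in both OGT-KO-labelled libraries than in both control libraries, Mat2a, Mat2b and Mtr lie higher, and Chdh stands out in the OGT-KO-labelled library after 7 days (404 CPM).

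The promoters of 8 of the 9 genes were found in the RefSeq promoter table (GRCm38.p6), each running from 250 bases before to 50 bases after the gene's start. Those of Mat2a and Mat2b are shown because both genes were higher in CPM under the OGT-KO label, and those of Ahcy and Bhmt because these genes had the lowest log2 differences with no recovery. Capitals mark matches on either strand to 3 motifs. The GC box was searched as GGGCGG. The TATA box was searched as TATAAA and the remaining motif, the CCAAT box, by the letters of its name. The NRF2 element, searched as TGACNNNGC, and the C/EBP element, searched as TTGCNNAA, were looked for on both strands as well and had no match in these 4 windows.
Mat2a (chr6:72439507-72439806, minus strand): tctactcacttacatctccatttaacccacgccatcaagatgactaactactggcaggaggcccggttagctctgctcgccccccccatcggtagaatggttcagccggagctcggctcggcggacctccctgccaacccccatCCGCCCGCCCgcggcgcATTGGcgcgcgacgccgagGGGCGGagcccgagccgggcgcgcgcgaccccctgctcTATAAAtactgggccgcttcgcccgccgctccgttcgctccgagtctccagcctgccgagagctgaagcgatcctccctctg
Mat2b (chr11:40692633-40692932, minus strand): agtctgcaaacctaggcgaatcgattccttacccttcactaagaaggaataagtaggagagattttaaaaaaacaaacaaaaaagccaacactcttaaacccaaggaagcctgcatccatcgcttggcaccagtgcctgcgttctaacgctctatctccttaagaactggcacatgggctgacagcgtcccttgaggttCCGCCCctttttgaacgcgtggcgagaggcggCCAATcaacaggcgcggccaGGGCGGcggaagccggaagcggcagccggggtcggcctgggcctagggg
Ahcy (chr2:155074448-155074747, minus strand): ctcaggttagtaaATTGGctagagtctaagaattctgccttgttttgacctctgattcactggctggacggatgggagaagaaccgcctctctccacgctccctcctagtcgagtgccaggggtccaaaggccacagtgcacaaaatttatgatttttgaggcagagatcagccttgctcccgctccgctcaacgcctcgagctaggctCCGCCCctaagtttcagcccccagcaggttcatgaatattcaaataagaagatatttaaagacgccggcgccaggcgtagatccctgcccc
Bhmt (chr13:93637709-93638008, minus strand): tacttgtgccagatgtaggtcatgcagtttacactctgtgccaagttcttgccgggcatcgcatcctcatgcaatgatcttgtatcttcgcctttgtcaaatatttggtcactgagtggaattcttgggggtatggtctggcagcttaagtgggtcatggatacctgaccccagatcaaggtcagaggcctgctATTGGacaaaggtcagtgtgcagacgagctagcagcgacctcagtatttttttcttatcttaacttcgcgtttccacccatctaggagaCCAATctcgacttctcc
A GC box was present in 35.7% of the 32851 promoters in the table, a TATA box in 13.6%, a CCAAT box in 37.4%, an NRF2 element in 12.4% and a C/EBP element in 10.8%. The Mat2a window held 34 CpG dinucleotides, more than 92.3% of all promoters, with 3 GC boxes, 1 TATA box and 1 CCAAT box. In it the overlapping run of capitals holds 2 of the GC boxes. The Mat2b window held 19 CpG, with 2 GC boxes and 1 CCAAT box. Ahcy had 13 CpG, with 1 GC box and 1 CCAAT box, and Bhmt had 8 CpG, no GC box and 2 CCAAT boxes, against a median of 7 CpG over all promoters. Of the windows not shown, those of Cbs and Bhmt2, both lower in CPM under the label, had 22 and 26 CpG, each with 2 GC boxes. Mtr, higher in CPM, had 24 CpG, and the windows of Chdh had 26 or 4. These matches describe letters in the windows and were not tied to the differences.

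Mat1a, the adult form among the genes of S-adenosylmethionine synthesis, was at 1611 CPM in control and 587 CPM in the OGT-KO-labelled library with no recovery, and at 1848 and 567 CPM after 7 days. Both control libraries were high and both OGT-KO-labelled libraries were low. Mat1a was 2.75-fold lower under the OGT-KO label with no recovery (exact 95% interval of the ratio 2.69 to 2.80, counting error only) and 3.26-fold lower after 7 days (3.19 to 3.32). Relative to the median gene the log2 difference was -1.96 and -2.18. Mat2a, the form that growing liver uses, had 78.4 and 132 CPM with no recovery and 81.1 and 115 CPM after 7 days, in control and under the OGT-KO label respectively. It was 1.69-fold higher with no recovery (1.59 to 1.79) and 1.42-fold higher after 7 days (1.33 to 1.51) in CPM, but less the median gene the log2 difference was 0.24 and 0.02, and 0.04 and -0.18 with median-ratio scaling. Mat2a overlaps Particl on the opposite strand over 508 exon bases, 11.3% of the exon bases of Mat2a. Of its 50-base stretches, 13.9% also occur in other annotated genes, chiefly Gm9523 and Particl. How such reads were counted was not given in the sources used here, which also limits the ratios to Mat2a. Mat2b, the regulatory subunit, had 23.1 and 39.9 CPM with no recovery and 23.2 and 39.7 CPM after 7 days. Its log2 difference was 0.76 and 0.75 in CPM and 0.06 and 0.09 with median-ratio scaling, so its excess in CPM likewise depended on the scaling in size, though not in sign.

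The ratio of 2 genes within a library does not depend on the scaling between libraries. There were 20.5 Mat1a reads for each Mat2a read in control with no recovery (19.6 to 21.6) and 4.43 in the OGT-KO-labelled library (4.26 to 4.61), and 22.8 (21.7 to 24.0) and 4.93 (4.73 to 5.15) after 7 days. The ratio was thus 4.64-fold lower under the OGT-KO label with no recovery (4.35 to 4.94) and 4.62-fold lower after 7 days (4.33 to 4.93), nearly the same at both times. Per kilobase of transcript, Mat2a made up 5.68% of the summed level of the Mat1a and Mat2a catalytic genes in control with no recovery and 5.15% after 7 days, and 21.8% and 20.1% in the OGT-KO-labelled libraries. With the union of all annotated exons as the length, a choice added after the data were seen, these shares were 3.63% and 3.28% in control and 14.9% and 13.6% under the OGT-KO label. Mat1a transcripts therefore remained the more abundant form in all 4 libraries, at 16.6 and 18.4 times the Mat2a level per kilobase in the control libraries and 3.58 and 3.99 times under the OGT-KO label. With union exon lengths the same ratios were 26.6 and 29.5 in control and 5.73 and 6.38 under the OGT-KO label. Mat2b kept pace with Mat2a with no recovery, at 0.295 reads for each Mat2a read in control (0.266 to 0.327) and 0.301 under the OGT-KO label (0.280 to 0.325). After 7 days the ratio was 0.287 in control (0.258 to 0.318) and 0.346 under the OGT-KO label (0.320 to 0.373), 1.21-fold higher (1.06 to 1.37).

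**Figure D2:**
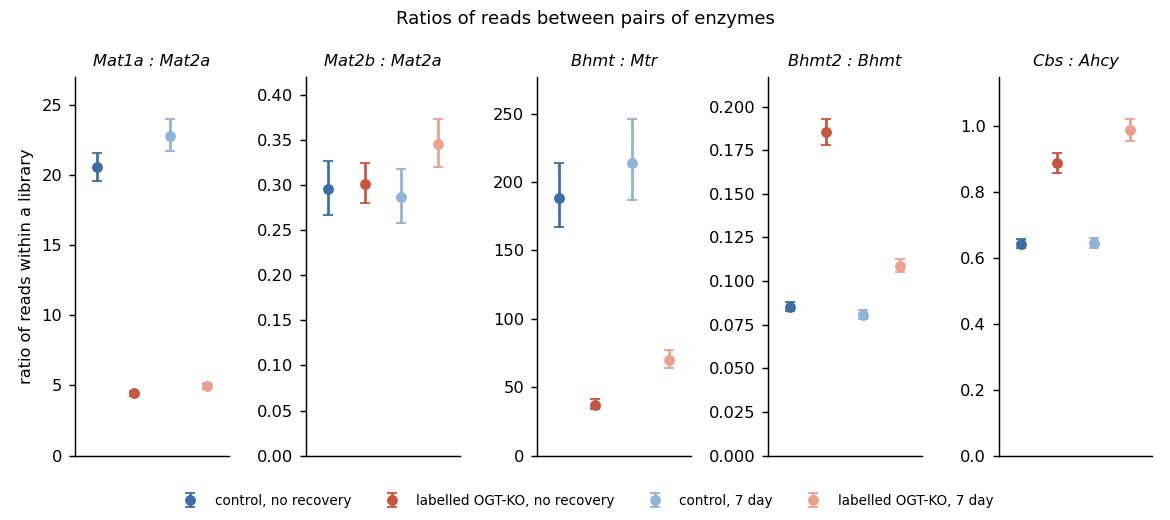
Ratio of reads between 5 pairs of the enzymes within each library, on linear axes that start at 0, with exact 95% intervals from the read counts (counting error only). The Mat1a to Mat2a ratio is near 20.5 and 22.8 in the control libraries and near 4.43 and 4.93 under the OGT-KO label, and the Bhmt to Mtr and Bhmt2 to Bhmt ratios under that label lie nearer to control after 7 days than with no recovery.

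Genes with the most similar course over the 4 libraries were sought among all genes compared, by the Euclidean distance between profiles of log2(CPM + 1) less their mean. For Mat1a they were Ugt2a3 (distance 0.0827), a UDP-glucuronosyltransferase, Sdr42e1 (0.0959) and Apoh (0.119), which encodes a plasma glycoprotein secreted by the liver. Among the enzymes themselves, Ahcy was nearest to Mat1a (0.185) and Cbs next (0.523). For Mat2a the nearest genes were Gm49336 (0.0252), Clasrp (0.0261) and Mrpl43 (0.0276), the last a mitochondrial ribosomal protein, and Mat2b was the nearest enzyme (0.193). For Bhmt they were Dbt (0.0675), a subunit of the branched-chain ketoacid dehydrogenase, Fgfr4 (0.0793), the fibroblast growth factor receptor of hepatocytes, and Cmbl (0.0982). With 4 libraries many genes have such courses, and the distances are a description.

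Ahcy, the only one of these enzymes to clear S-adenosylhomocysteine, had 1001 and 324 CPM with no recovery and 966 and 309 CPM after 7 days, in control and under the OGT-KO label. The control libraries were alike and so were those labelled OGT-KO. Ahcy was 3.09-fold lower with no recovery (3.01 to 3.17) and 3.13-fold lower after 7 days (3.04 to 3.22), or -2.13 and -2.12 on the log2 scale relative to the median gene. Of the 50-base stretches of its transcript, 77.0% also occur in other annotated genes, chiefly Gm4737, and how reads on such copies were assigned was not given in the sources used here. Gm4737 was listed at 10.2 and 4.55 CPM with no recovery and 9.21 and 3.63 CPM after 7 days, and adding it to Ahcy left the log2 differences at -1.62 and -1.64. A gene at that level could hardly move them, so the sum does not show how shared reads were assigned. Of the 3 related genes listed (Ahcyl1, Ahcyl2 and Adk), 0 passed 2-fold in either direction at either time. Of all genes, 24.4% and 22.9% were at least 2-fold higher and 5.69% and 4.27% at least 2-fold lower. Adk, the kinase that removes adenosine, had 416 and 293 CPM with no recovery and 485 and 330 CPM after 7 days. Ahcyl1, a noncatalytic relative of Ahcy, had 106 and 105 CPM with no recovery and 98.5 and 112 CPM after 7 days, and Ahcyl2 lay between 31.4 and 34.5 CPM in all 4 libraries.

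Among the transcripts of the homocysteine remethylation genes, Bhmt was the most abundant in every library. Bhmt had 2298 CPM in control and 675 CPM in the OGT-KO-labelled library with no recovery, and 2271 and 1361 CPM after 7 days. The control libraries were nearly equal, and the OGT-KO-labelled library after 7 days lay between its counterpart with no recovery and the controls. Bhmt was 3.41-fold lower under the OGT-KO label with no recovery (3.35 to 3.47) and 1.67-fold lower after 7 days (1.64 to 1.69), with log2 differences of -2.27 and -1.22 relative to the median gene. Its annotated copy Gm5096, with which Bhmt shares most of the 61.5% of its 50-base stretches found in other genes, followed the same course at 41.1 and 11.4 CPM with no recovery and 42.2 and 21.8 CPM after 7 days. Adding the copy left the log2 differences of Bhmt at -1.77 and -0.74. The copy was too low to move them much, so the sum does not show how shared reads were assigned.

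Bhmt2 lies next to Bhmt, with 0 protein-coding genes between them in the RefSeq table, and moved less. It had 196 and 125 CPM with no recovery and 184 and 148 CPM after 7 days. It was 1.57-fold lower under the OGT-KO label with no recovery (1.50 to 1.65) and 1.24-fold lower after 7 days (1.18 to 1.30), while with median-ratio scaling its log2 difference was -1.36 and -0.99. The number of Bhmt2 reads for each Bhmt read was 0.0853 in control and 0.185 under the OGT-KO label with no recovery, 2.17-fold higher (2.06 to 2.28), and 0.0808 and 0.109 after 7 days, 1.35-fold higher (1.28 to 1.42). Both neighbours were thus lower under the label, Bhmt by more, and the gap between them was narrower after 7 days.

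Mtr, the folate-dependent route, was the lowest of the 9 genes, at 12.2 CPM in control with no recovery (10.7 to 13.8) and 18.1 CPM under the OGT-KO label (16.4 to 19.9), and at 10.6 (9.23 to 12.1) and 19.4 CPM (17.6 to 21.3) after 7 days. Its counting intervals did not overlap between the labels at either time, but a difference beyond counting error was common. An exact binomial test on reads, which compares libraries and not conditions, called 8011 and 7899 of the 8963 genes between the labels. The log2 difference was 0.53 and 0.81 in CPM, 0.02 and 0.33 relative to the median gene, and -0.14 and 0.17 with median-ratio scaling, so its direction with no recovery depended on the scaling. In reads, there were 189 Bhmt reads for each Mtr read in control and 37.3 under the OGT-KO label with no recovery, 5.05-fold lower (4.32 to 5.90), and 214 and 70.1 after 7 days, 3.05-fold lower (2.59 to 3.60). Per kilobase, Mtr was 0.146% and 0.130% of the summed level of the 3 remethylation genes in the control libraries and 0.673% and 0.384% under the OGT-KO label, and Bhmt was 83.7% to 92.3% in the 4 libraries. With union exon lengths Bhmt was 68.9% to 83.9%, and Bhmt2 was 15.8% to 29.8% in place of 7.53% to 15.6%.

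Chdh, the mitochondrial choline dehydrogenase that supplies betaine, behaved unlike Bhmt. It had 222 CPM in control and 235 CPM under the OGT-KO label with no recovery, and 196 and 404 CPM after 7 days. The first 3 of these libraries were close together and the OGT-KO-labelled library after 7 days was high. Chdh was 1.06-fold higher under the OGT-KO label with no recovery (1.02 to 1.10) and 2.06-fold higher after 7 days (1.99 to 2.14). Relative to the median gene its log2 difference was -0.42 and 0.56, and with median-ratio scaling -0.63 and 0.36, so after 7 days it passed 2-fold at equal totals alone among the 3 scalings, and with no recovery its direction depended on the scaling. Chdh and Cacna1d, a calcium channel subunit, overlap on opposite strands over 589 exon bases, 9.47% of the exon bases of Chdh, and whether the counting used strand was not given in the sources used here. Cacna1d had 35.2 and 34.5 CPM with no recovery and 32.9 and 59.1 CPM after 7 days, so it too was high in the OGT-KO-labelled library after 7 days. The sum of both genes had a log2 difference of 0.07 and 1.01.

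Cbs, the entry to transsulfuration, had 643 and 287 CPM with no recovery and 622 and 304 CPM after 7 days. Both OGT-KO-labelled libraries were low. Cbs was 2.24-fold lower with no recovery (2.17 to 2.31) and 2.04-fold lower after 7 days (1.99 to 2.11), or -1.67 and -1.51 on the log2 scale relative to the median gene. It was lower by less than Ahcy, the enzyme that makes its substrate: there were 0.643 Cbs reads for each Ahcy read in control and 0.886 under the OGT-KO label with no recovery, 1.38-fold higher (1.33 to 1.43), and 0.645 and 0.986 after 7 days, 1.53-fold higher (1.47 to 1.59).

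**Figure D3:**
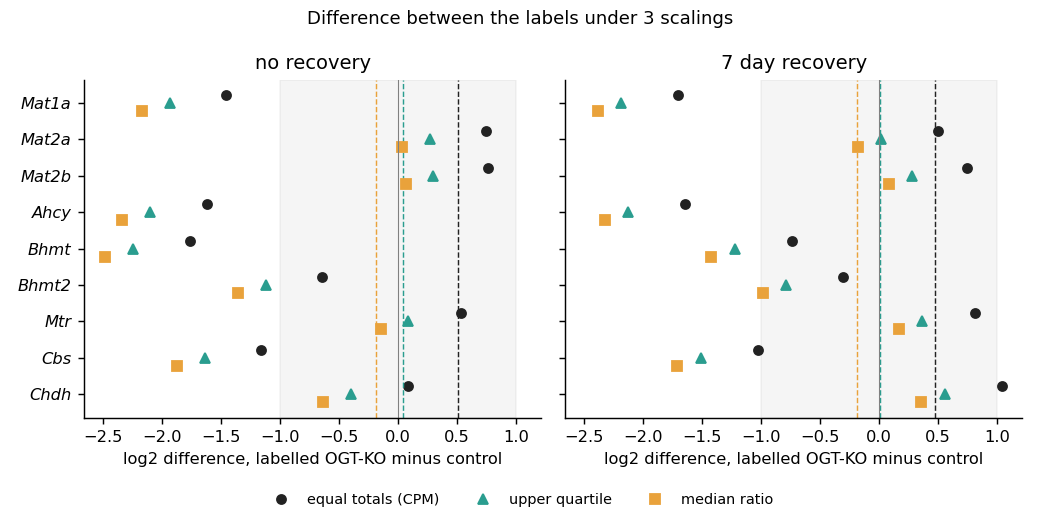
Log2 difference, labelled OGT-KO minus control, of the 9 genes with no recovery (left) and after 7 days (right) under 3 scalings, with the median of all genes under each scaling as a dashed line and the range under 2-fold shaded. Mat1a, Ahcy and Cbs lie beyond 2-fold lower at both times under each scaling, while Mat2a, Mat2b and Mtr lie at or to the right of the dashed line of their scaling.

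The order of the levels was compared per kilobase of the principal transcript. In both control libraries it was Bhmt, Mat1a, Ahcy, Cbs, Bhmt2, Chdh, Mat2a, Mat2b and Mtr, from 923 CPM per kilobase for Bhmt with no recovery to 1.47 for Mtr, and no neighbours in it overlapped in their counting intervals. In the OGT-KO-labelled library with no recovery, Bhmt, Mat1a and Ahcy kept the first places at 271, 169 and 128 CPM per kilobase, and Bhmt2 (50.6), Mat2a (47.2) and Cbs (46.1) followed, each overlapping the next in its counting interval. After 7 days under that label, Chdh (71.0) came directly after Ahcy, ahead of Bhmt2 (60.1), Cbs (48.9) and Mat2a (41.0). With union exon lengths Mat1a and not Bhmt came first in 3 of the 4 libraries, and in the OGT-KO-labelled library with no recovery Mat2a came at rank 7, behind Cbs (5) and Chdh (6).

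Between the times, the control libraries differed little in these genes. In control, 0 of the 9 were at least 2-fold higher after 7 days, beside 0.245% of all genes, and 0 of 9 at least 2-fold lower, beside 0.96%, with log2 differences from -0.18 (Mtr and Chdh) to 0.20 (Mat1a). In the OGT-KO-labelled libraries, 1 of 9 (Bhmt) was at least 2-fold higher after 7 days, beside 1.04%, and 0 of 9 at least 2-fold lower, beside 0.435%. Bhmt was 2.02-fold higher there (1.98 to 2.06), just past the limit, and Chdh 1.72-fold higher (1.66 to 1.77), just short of it. The remaining 7 genes lay between -0.20 (Mat2a) and 0.24 (Bhmt2) on the log2 scale. Bhmt and Chdh thus held the largest differences between the times among the 9, both under the OGT-KO label, and Mat1a (587 and 567 CPM) and Ahcy (324 and 309 CPM) stood at nearly the same low level at both. The difference between the labels itself differed between the times by 1.03 (log2) for Bhmt, rank 174 from the highest of 8963 genes, and by 0.96 for Chdh, rank 220, against 0.03 for the median gene. For the other 7 enzymes it lay between -0.25 (Mat1a and Mat2a) and 0.34 (Bhmt2). These differences rest on the same 4 libraries, and the OGT-KO-labelled library after 7 days takes part in each. In that library Ogt went against the label at equal totals (log2 difference 0.47). It did not do so with upper-quartile (-0.0053) or median-ratio scaling (-0.20).

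**Figure D4:**
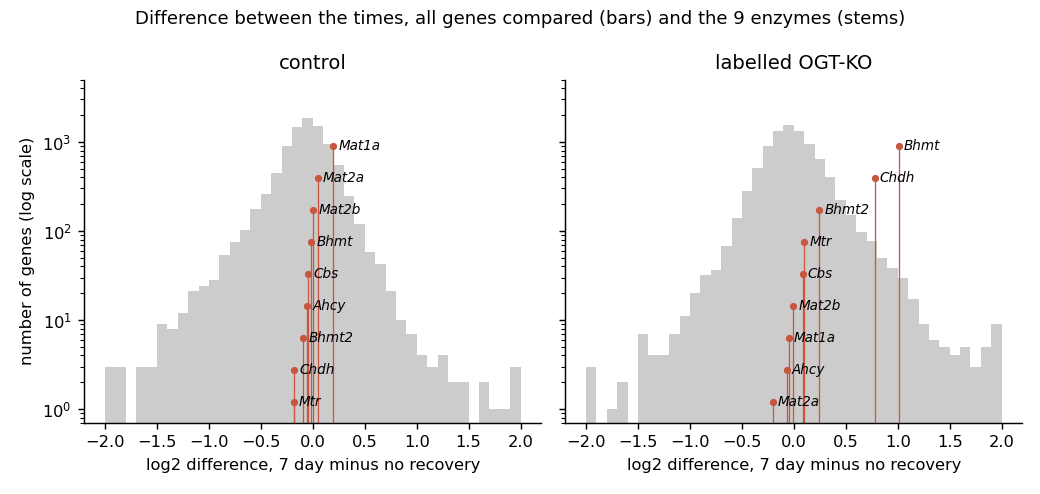
Number of genes (bars, log axis) by log2 difference of 7 days minus no recovery, over the 8963 genes compared, in control (left) and under the OGT-KO label (right), with differences beyond the axis counted in the end bars; stems give the 9 enzymes, and their heights only spread the names. All 9 lie in the centre in control, and Bhmt (1.01) and Chdh (0.78) lie to the right under the OGT-KO label.

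The rest of the pathway was described with 48 further genes, of which 40 passed the filter. Under the OGT-KO label with no recovery, 9 of the 40 (22.5%) were at least 2-fold higher, beside 24.4% of all genes, and 9 (22.5%) at least 2-fold lower, beside 5.69%. After 7 days it was 8 (20.0%) on each side, beside 22.9% higher and 4.27% lower. The share on the higher side was thus near that of all genes. With median-ratio scaling the counts were 2 higher and 21 lower with no recovery, and 2 and 16 after 7 days. That scaling put 935 of all 8963 genes higher and 1381 lower with no recovery, and 1038 and 1055 after 7 days. At equal totals the median log2 difference of the 40 genes was -0.40 and -0.11, against 0.51 and 0.48 for all genes. Between the times, 0 of 40 passed 2-fold in control, and 1 of 40 (Nnmt, higher) did so under the OGT-KO label. Medians of the arms ran from -1.38 (methyltransferases) to 0.89 (salvage and polyamine genes) with no recovery, and from -0.96 to 0.81 for the same arms after 7 days.

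After betaine has given 1 methyl group to homocysteine, further steps strip the remaining ones, pass them to folate and leave glycine. The betaine and glycine arm as listed also holds Aldh7a1 and Gnmt, which do not strip methyl groups. In this arm 4 of its 4 genes were below control at both times. Of them 2 (Sardh and Gnmt) were so by at least 2-fold, beside 5.69% and 4.27% of all genes. Dmgdh had log2 differences of -0.52 and -0.41. Sardh, sarcosine dehydrogenase, had 1143 and 361 CPM with no recovery and 1026 and 481 CPM after 7 days, a log2 difference of -1.66 and -1.09. Aldh7a1, which oxidizes betaine aldehyde to betaine and so follows Chdh, had 594 and 320 CPM with no recovery and 577 and 375 CPM after 7 days. Its log2 difference was -0.89 and -0.62, so the enzymes of choline oxidation stood apart after 7 days, Chdh above control in CPM and Aldh7a1 below. Gnmt, the glycine methyltransferase that uses S-adenosylmethionine in liver and counts in both lists, had 1563 and 637 CPM with no recovery and 1509 and 714 CPM after 7 days, or -1.29 and -1.08 on the log2 scale. Among the 4 methyltransferases listed, 3 were at least 2-fold lower with no recovery (Gnmt, Gamt and Nnmt) and 2 after 7 days (Gnmt and Nnmt), beside the same shares of all genes. Gamt, which makes creatine, had 145 and 51.5 CPM with no recovery and 171 and 95.3 CPM after 7 days, and Nnmt, which methylates nicotinamide, 114 and 23.5 CPM and 122 and 54.3 CPM.

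In the folate and cobalamin arm 12 of 18 genes passed the filter. Of these, 3 were at least 2-fold higher under the OGT-KO label at both times, near the 24.4% and 22.9% of all genes. On the lower side 1 passed 2-fold with no recovery and 2 after 7 days, beside 5.69% and 4.27% of all genes. With median-ratio scaling 0 and 1 were at least 2-fold higher, and 6 and 4 lower. Of all 8963 genes, that scaling put 935 and 1038 on the higher side and 1381 and 1055 on the lower. Mtrr, which reactivates Mtr, had 7.10 and 20.3 CPM with no recovery and 5.36 and 15.9 CPM after 7 days. Tyms, thymidylate synthase, had 4.28 and 13.8 CPM with no recovery and 4.76 and 24.4 CPM after 7 days, log2 differences of 1.49 and 2.14. Shmt1, the cytosolic serine hydroxymethyltransferase, was on the other side, at 142 and 41.9 CPM with no recovery and 133 and 64.9 CPM after 7 days. The median of the 12 was -0.14 and 0.11.

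Past Cbs, the transsulfuration and cysteine arm had 3 of 8 genes at least 2-fold lower with no recovery (Csad, Mpst and Suox), 2 of 8 after 7 days (Cdo1 and Mpst), and 1 of 8 at least 2-fold higher at both (Sqor, sulfide quinone oxidoreductase). Of all genes, 5.69% and 4.27% were at least 2-fold lower and 24.4% and 22.9% at least 2-fold higher. Mpst, a mercaptopyruvate sulfurtransferase, had 99.4 and 31.6 CPM with no recovery and 95.7 and 44.0 CPM after 7 days. Suox, sulfite oxidase, had 145 and 46.6 CPM with no recovery and 128 and 76.2 CPM after 7 days. Csad, the taurine gene, had 287 and 76.1 CPM with no recovery but 156 and 124 CPM after 7 days, so the control libraries themselves differed. Cth, the enzyme directly after Cbs, had 341 and 398 CPM with no recovery and 283 and 543 CPM after 7 days, log2 differences of 0.22 and 0.94, where Cbs had -1.16 and -1.03. With median-ratio scaling Cth was at -0.50 and 0.25.

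In the methionine salvage and polyamine arm 10 of 12 genes passed the filter, and 5 were at least 2-fold higher under the OGT-KO label with no recovery (Odc1, Mtap, Mri1, Sat1 and Smox), 4 after 7 days (the same genes without Mri1), and 1 at least 2-fold lower at both (Paox). Of all genes compared, 24.4% and 22.9% were at least 2-fold higher and 5.69% and 4.27% lower. With median-ratio scaling 2 of the 10 were at least 2-fold higher (Sat1 and Smox) with no recovery and 1 (Smox) after 7 days. On the lower side there were 2 and 1 with that scaling. It put 935 and 1038 of all 8963 genes on the higher side and 1381 and 1055 on the lower. Smox, spermine oxidase, had 2.92 and 34.4 CPM with no recovery and 2.80 and 18.8 CPM after 7 days. Sat1, the acetyltransferase that opens polyamine catabolism, had 40.4 and 176 CPM with no recovery and 43.9 and 120 CPM after 7 days. Paox, the oxidase of acetylated polyamines, had 42.2 and 15.6 CPM with no recovery and 36.6 and 17.1 CPM after 7 days. The median of the arm was 0.89 and 0.81 in CPM and 0.19 and 0.15 with median-ratio scaling.

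**Figure D5:**
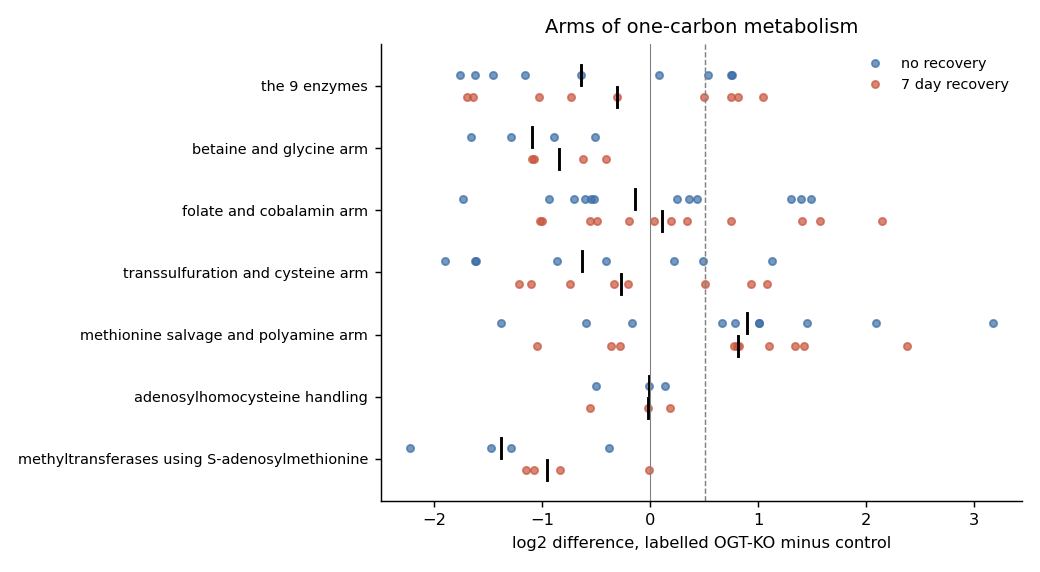
Log2 difference in CPM, labelled OGT-KO minus control, of the 9 enzymes and of the genes of 6 pathway arms that passed the filter, with no recovery and after 7 days; each point is 1 gene, black bars are medians, and the dashed line is the median of all genes with no recovery (0.51). The betaine and glycine arm and the methyltransferases, which share Gnmt, lie below 0 in all their genes, Pemt only just after 7 days. The salvage and polyamine arm has the highest medians (0.89 and 0.81).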

How the data were processed

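The authors deposited 1 table of CPM, read counts scaled to equal totals, for 13903 genes, with mRNA libraries made from total RNA. The submitters' processing notes name STAR, DESeq2 and GRCm39, without versions or roles. The file name speaks of DESeq2 normalization, yet every column adds up to 1000000. Whole reads were recovered, since 100% of the entries were whole multiples of the value of 1 read (tolerance 0.01). Groups came from the labels, with 1 pooled library each. Differences are of log2(CPM + 1), which understates changes of low genes, over the 8963 genes that averaged at least 10 CPM in the 4 libraries, and were called at 2-fold. Intervals are exact 95% Clopper-Pearson intervals for CPM and exact conditional intervals for ratios of reads. They and the floor of 3 reads cover counting error only; the spread between mice is unknown. No test between groups was run: each comparison sets 1 library against 1, and a fit of the label over both times, which would treat the times as replicates, was not made.

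Alternatives were median-ratio and upper-quartile scaling, pseudocounts of 0.1 and 10, no filter, an exact binomial test on reads with Benjamini-Hochberg adjustment, and 1 added to both values of a ratio. Named genes were the 9 enzymes, Ogt, in each list the 3 genes with the largest absolute mean of both label differences, and the 3 genes nearest in profile to Mat1a, Mat2a and Bhmt. The rule lets other genes of the lists be named, and 1 gene it names is not reported here. The 9 genes and all lists were chosen with earlier results of these data known. Tf and Ncr1 of the marker lists were not analysed here. Transcript lengths and shared 50-base stretches came from GENCODE M21 and promoters from RefSeq, both on another build than the processing notes name, so no gene coordinates were joined to the values; 13893 gene identifiers were found in the gene name table. Python 3.11.15, numpy 2.4.6, pandas 2.3.3 and scipy 1.17.1 were used, and the steps were tested on simulated data.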

Additional observations from a re-analysis of the deposited data

Results flagged for a closer look

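Only the enzymes and part of each pathway list were screened here. That part was the genes with the largest absolute mean of both label differences, as set out above. With 1 library per group, a gene was listed when the times differed one way in control and the other way under the OGT-KO label. It was also listed when its difference between the labels changed direction between the times. Genes outside this screen can meet the rule too. Examples are Cth (-0.27 in control and 0.45 under the label) and Cdo1 (0.15 and -0.20). None of these differences was tested, and a change of direction can be as small as counting error. Each value below is the second log2 difference less the first, at equal totals.

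Among the enzymes, the difference of 7 days less no recovery was higher under the OGT-KO label than in control by 1.03 for Bhmt (1.01 against -0.02), 0.96 for Chdh (0.78 against -0.18), 0.34 for Bhmt2, 0.28 for Mtr and 0.13 for Cbs. It was lower under the label for Mat1a (-0.25), Mat2a (-0.25) and Mat2b (-0.0116). Among the pathway genes screened it was higher under the label by 1.56 for Csad (0.69 against -0.87), 0.87 for Suox and 0.57 for Sardh. It was also higher by 0.52 for Mpst, 0.33 for Paox, 0.27 for Aldh7a1, 0.22 for Gnmt and 0.20 for Ahcyl1. It was lower for Sat1 (-0.67) and Ahcyl2 (-0.16). Ahcyl1 and Ahcyl2 also changed the direction of their difference between the labels from no recovery to 7 days, by 0.20 (from -0.02 to 0.19) and -0.16 (from 0.13 to -0.02).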

How the results depend on the processing

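Of 45 values of called differences of the enzymes under 5 alternatives, 0 changed sign, and of 135 values of uncalled ones 11 did, all under another scaling. Between the labels these were Mtr (-0.14) and Chdh (-0.63) with no recovery and Mat2a (-0.18) after 7 days with median-ratio scaling, and Chdh (-0.39) with no recovery with upper-quartile scaling; the other 7 were differences between the times near 0. With median-ratio or upper-quartile scaling, 0 of 9 enzymes were at least 2-fold higher after 7 days in place of 1 (Chdh); the other 46 of 48 counts of enzymes stayed within 1.5 times, although with both scalings Bhmt2 also passed 2-fold lower with no recovery (5 of 9) and Bhmt after 7 days (4 of 9).

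Counts over all genes moved more. Between the labels, genes past 2-fold on the higher and on the lower side numbered 2185 and 510 with no recovery and 2050 and 383 after 7 days. They became 935 and 1381, and 1038 and 1055, with median-ratio scaling (40.4% and 49.6% higher, against 81.1% and 84.3%), and 1208 and 981, and 1215 and 740, with upper-quartile scaling (55.2% and 62.1% higher). A pseudocount of 10 gave 1367 and 1344 higher, and no filter gave 4595 and 4492 higher. Between the times, the control counts (22 higher and 86 lower) became 35 and 130 with a pseudocount of 0.1 and 12 and 21 with 10, and 134 lower with no filter; under the OGT-KO label (93 and 39) they became 39 and 18 with a pseudocount of 10 and 178 and 110 with no filter. The exact binomial test on reads, which compares libraries and not conditions, called 8011 and 7899 genes between the labels, all 9 enzymes among them both times, and 3524 and 5048 between the times, with 5 and 7 enzymes; with 2-fold required as well, the enzyme counts were as reported. All 20 ratios of reads stayed within their counting intervals with 1 added to both values. Of the alternatives chosen after seeing the data, sums with a copy or overlapping gene left all 12 differences of Bhmt, Ahcy and Chdh within counting error. The copies were too low for much else: in control with no recovery Gm5096 had 41.1 CPM beside 2298 for Bhmt, and Gm4737 10.2 beside 1001 for Ahcy. These sums therefore do not show how shared reads were assigned. Union exon lengths moved all 20 ratios per kilobase.

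No paired analysis was possible because the labels give no replicate numbers and each comparison sets 1 library against 1; a fit of the label over both times was not made. Depth did not limit the 9 enzymes, the lowest of which had 212 reads. What limits them is that the spread between mice is unknown, that RNA of 3 mice was pooled, and that the scaling shifts every difference between the labels by a common amount.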
